A study of Mus musculus with 12 samples.

Results

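Nanog, Gdf3 and Dppa3 lie next to each other on mouse chromosome 6, and the accessible regions in and around them are described here. A region of the authors' merged ATAC-seq peak list was taken when it overlapped the body of 1 of the 3 genes or the 50 kb to either side of it (GENCODE annotation, GRCm38/mm10). The rule found 50 of the 170548 regions of the list. The 3 windows join into a single stretch of 209.231 kb, chr6:122555403-122764633, and the regions are numbered 1 to 50 along it.

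ATAC-seq uses a transposase that cuts open chromatin and inserts adapters there, so that a called peak marks accessible DNA. The 12 libraries came from mouse embryonic stem (ES) cells, with 2 replicates in each of 6 groups. In the ZHBTc4 line the only source of OCT4 is a Tet-Off transgene, which doxycycline (dox) silences. OCT4 ON cells were untreated and OCT4 OFF cells received dox for 24 hr. In the 2TS22C line a transgene of the same kind supplies SOX2, and SOX2 ON and SOX2 OFF cells, without and with dox, were collected at 26 hr and at 40 hr. Dox was used at 1 µg/ml, and all cells grew in serum with LIF, CHIR99021 (an inhibitor of GSK3) and PD184352 (an inhibitor of MEK). Each line is a single genetically modified line, and both lack the normal control of the factor that is removed. The deposited list merges the peaks of both lines. The study also used published ZHBTc4 libraries from cells in serum with LIF only, and whether their peaks entered the list is unknown here. The list gives the start and end of each region and holds no height and no value per sample. The line and treatment behind each region, any difference with dox and the depth are therefore unknown here, and what follows is a description without tests.

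Nanog encodes a homeodomain transcription factor that stabilizes the self-renewal of ES cells. Gdf3 encodes a secreted ligand of the TGF-beta superfamily, and Dppa3, also called Stella, encodes a maternal factor that protects DNA methylation in the early embryo. OCT4 and SOX2 bind DNA together on a composite element in which a SOX element stands next to an octamer, and such an element in the Nanog promoter is a textbook example of it.

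The sequences that carry the matches to the composite, the octamer and the ESRRB element, and the widest intergenic region upstream of Nanog for contrast, are shown before the values. The octamer was searched as ATGCAAAT without a mismatch. The OCT4::SOX2 composite was searched as CATTGT, 1 free base and ATGCAAAT, with at most 2 mismatches over the letters of both elements. The KLF element CCACACCC and the ESRRB element TCAAGGTCA, which KLF factors and the orphan nuclear receptor ESRRB bind in ES cells, were searched without a mismatch. Both strands of the central 200 bp of each region were read, and an octamer can be part of a composite match. The Nanog promoter comes from RefSeq (GRCm38) and the other sequences are the central 200 bp of the regions in the same build. Capitals mark a composite match in the Nanog promoter, 2 octamers and a composite match in region 14, an octamer in region 22 and an ESRRB element in region 43. All are printed as the plus strand, so that an element on the minus strand appears as its reverse complement. Region 34 holds none of the 4.
Nanog promoter, chr6:122707239-122707538, plus strand: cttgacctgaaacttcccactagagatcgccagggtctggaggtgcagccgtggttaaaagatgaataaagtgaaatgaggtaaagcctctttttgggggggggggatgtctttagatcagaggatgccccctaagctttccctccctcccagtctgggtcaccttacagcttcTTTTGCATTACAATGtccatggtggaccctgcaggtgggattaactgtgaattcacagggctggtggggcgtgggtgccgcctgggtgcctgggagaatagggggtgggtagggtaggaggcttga
region 14, chr6:122624601-122624800, plus strand: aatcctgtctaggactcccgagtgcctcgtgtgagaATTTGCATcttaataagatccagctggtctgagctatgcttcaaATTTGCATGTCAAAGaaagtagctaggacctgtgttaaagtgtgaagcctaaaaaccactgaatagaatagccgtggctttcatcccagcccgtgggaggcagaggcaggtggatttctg
region 22, chr6:122660672-122660871, plus strand: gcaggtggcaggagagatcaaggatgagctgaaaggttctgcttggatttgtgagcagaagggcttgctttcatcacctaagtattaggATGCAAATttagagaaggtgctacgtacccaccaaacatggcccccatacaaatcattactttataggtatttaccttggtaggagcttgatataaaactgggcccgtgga
region 43, chr6:122732236-122732435, plus strand: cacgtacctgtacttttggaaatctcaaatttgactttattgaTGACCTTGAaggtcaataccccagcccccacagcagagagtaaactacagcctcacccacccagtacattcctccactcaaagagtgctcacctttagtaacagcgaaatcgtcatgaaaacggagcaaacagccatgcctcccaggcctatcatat
region 34, chr6:122702590-122702789, plus strand: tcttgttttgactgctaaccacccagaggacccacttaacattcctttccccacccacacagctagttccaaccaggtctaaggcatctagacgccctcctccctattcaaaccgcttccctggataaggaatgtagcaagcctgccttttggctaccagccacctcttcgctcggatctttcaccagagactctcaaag

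Along the stretch, the 50 regions covered 26.591 kb, or 12.7% of the bases, where all regions of the list cover 3.10% of the genome. Their number came to 23.9 per 100 kb, against 6.52 on the whole of chromosome 6 and 6.26 over all chromosomes, 3.82 times the latter value. Regions were separated by a median of 2611 bp. The shortest of the 49 gaps, 171 bp, followed region 25, and 9 gaps were under 1 kb. The longest gap measured 16.1 kb, from region 47 to region 48 within the body of Slc2a3, which encodes the glucose transporter GLUT3. At the low end of the stretch, region 1 lay 1474 bp inside the window and the last region left out ended 12380 bp before it. At the high end, region 50 reached 149 bp into the window, with its center outside, and the first region left out began 1623 bp beyond it.

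Besides Nanog, Gdf3 and Dppa3, the stretch holds the protein-coding genes Apobec1 on the side of Gdf3 and part of Slc2a3 on the side of Nanog. Apobec1 encodes the deaminase that edits the apolipoprotein B transcript. In all, 29 of the 50 regions overlapped an annotated gene and 21 overlapped none. By the position of the center, 9 regions (18.0%) were exonic, 19 (38.0%) intronic and 22 (44.0%) intergenic. Over the whole list the shares were 13.7%, 44.3% and 42.0%. The study's limit of 1 kb to a TSS was used to part promoter-proximal from distal regions, measured here from the region center to the TSS of any transcript of the annotation. By this measure 40 of the 50 regions were distal, a share of 80.0% (95% Wilson interval 67.0 to 88.8%, counting error only, since regions are not replicates). The share over all regions, 82.7%, lies inside that interval. From the nearest region edge the share of the 50 regions was 76.0%, and no share over all regions is given by that measure. Of the 10 promoter-proximal regions, 3 were proximal to the TSS of a processed pseudogene (Gm16557, Gm10420 or Gm10224). The closest calls were region 36 in the Nanog gene, centered 892 bp from the nearest TSS, and region 15 in the Dppa3 gene, centered 1010 bp away. From center to closest TSS the median was 5826 bp, against 8889 bp over the list.

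**Figure D1:**
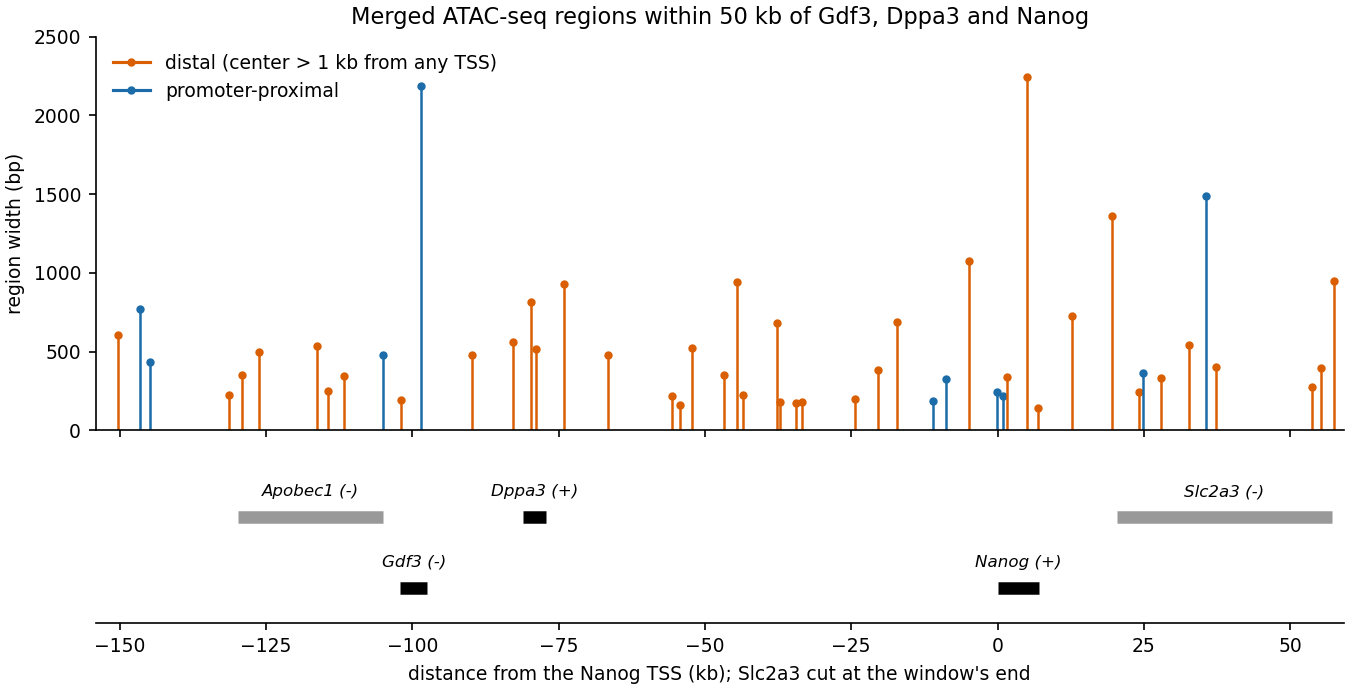
Width of each of the 50 merged regions (vertical axis, bp) by the distance of its center from the Nanog TSS (horizontal axis, kb), with Apobec1, Gdf3, Dppa3, Nanog and Slc2a3 and their strands drawn underneath. Orange marks distal and blue marks promoter-proximal regions, and the 2 tallest lines are region 38 in the Nanog gene (2242 bp) and region 12 in the Gdf3 gene (2190 bp).

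The widths were close to those of the list. They ran from 142 to 2242 bp with a median of 396.5 bp (quartiles 244 and 660.5 bp), and the median of all regions was 379 bp (quartiles 223 and 645 bp). Proximal regions of the list tended to be wide, with a median of 757 bp, but the 10 proximal regions of the neighbourhood had a median of 399.5 bp, close to the 396.5 bp of its 40 distal regions. At least 1 kb was reached by 5 regions (10.0%, where 9.83% of all regions reach it) and by 3 of the 40 distal regions, which are regions 34, 38 and 41 (4.62% of all distal regions). The other 2 wide regions cover start sites, region 12 at Gdf3 and region 46 at Slc2a3. At the other end, 8 regions were under 200 bp (16%, against 19.4% of the list), and 27 were wider than the median of all regions.

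Gdf3 (ENSMUSG00000030117.5) lies on the minus strand, chr6:122605403-122610087, with 2 exons. Region 12, chr6:122607892-122610081, was 2190 bp wide and lay over most of exon 1 and of the intron that follows. This region covered 386 bp of exon 1 and the TSS of the shorter noncoding transcript at position 122609824. It stopped 6 bp short of the 5′ end of the protein-coding transcript at 122610087, so that the merged region lay wholly inside the gene. Its edge comes from merged peaks and does not fix where accessibility ends. With region 11, chr6:122605523-122605713, which lay as 191 bp inside exon 2, regions covered 50.8% of the gene. Among all protein-coding genes the median share of the body covered was 5.35%, and 2.05% of genes reached the share of Gdf3. Such ranks of the body share, here and below, compare genes of every length without matching for it. The body measured 4685 bp at Gdf3 and 3863 bp at Dppa3. The nearest distal regions on either side of the 5′ end were region 11, centered 4.47 kb downstream, and region 13, chr6:122617409-122617889, 481 bp wide and centered upstream at -7.56 kb.

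Dppa3 (ENSMUSG00000046323.8) lies on the plus strand, chr6:122626410-122630272, with 4 exons. No region covered either of its annotated start sites. The nearest region edge was 946 bp from the 5′ end at position 122626410 and 603 bp from the TSS of the other transcript at 122626753. For comparison, a region overlapped the 5′ end of 61.6% of all protein-coding genes and had an edge within 1 kb of it for 70.1%, and Dppa3 belongs to the latter set only. Accessible regions flanked the start site instead. Region 14, chr6:122624420-122624981, 562 bp wide and intergenic, was centered upstream of the 5′ end at -1.71 kb, and region 15, chr6:122627356-122628171, 816 bp wide, was centered downstream at 1.35 kb in intron 1. Region 16, chr6:122628434-122628951, 518 bp wide, contained all 233 bp of exon 2. Regions 15 and 16 covered 34.5% of the gene, a share that 3.77% of protein-coding genes reach. Only regions 13 and 14 lay in the 16.3 kb between Gdf3 and Dppa3, covering 6.39% of it. Past the 3′ end, region 17, chr6:122632946-122633876, 931 bp wide, was centered 7.001 kb from the start site.

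Between Dppa3 and Nanog, 77.2 kb without another protein-coding gene held 18 whole regions (regions 17 to 34), and regions covered 10.4% of it. Of the 18, 16 were distal and intergenic. The other 2, regions 32 (187 bp) and 33 (328 bp), lay inside the processed pseudogenes Gm10420 and Gm10224. The 18 regions were 160 to 1073 bp wide with a median of 339 bp. Among them, 6 were under 200 bp, and the widest was region 34, chr6:122702153-122703225, the nearest distal region upstream of Nanog, 1073 bp wide and centered at -4.80 kb from the Nanog TSS. Region 23, chr6:122662548-122663491, 944 bp wide, was centered at -44.5 kb from the Nanog start and at 36.6 kb from the Dppa3 start, within the windows of both genes. In all, 7 regions lay in both of these windows, 17 lay in those of both Gdf3 and Dppa3, and 0 in those of Gdf3 and Nanog.

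Nanog (ENSMUSG00000012396.12) lies on the plus strand, chr6:122707489-122714633, and its longest transcript has 5 exons. Of the 3 genes, Nanog alone had a region on its 5′ end. That region, region 35, chr6:122707354-122707597, was narrow at 244 bp and was centered 14 bp upstream of the TSS. It also covered the start sites of the other 2 annotated transcripts at positions 122707565 and 122707568. Its GC content of 57.4% was the highest of the 50 regions, which ran from 35.9% in region 39, in the last exon of Nanog, to this value. Region 36 (215 bp) was centered 0.971 kb and region 37 (336 bp) 1.59 kb downstream of the TSS, between exons 2 and 3. Further into the gene lay region 38, chr6:122711479-122713720, the widest of the neighbourhood at 2242 bp. It was centered 5.11 kb from the TSS and contained exon 3 (266 bp) and exon 4 (87 bp) whole, with 579 bp of exon 5. The 5 regions 35 to 39 covered 3044 of the 7145 bp of the gene, or 42.6%, a share that 2.69% of protein-coding genes reach. For Pou5f1, the gene of OCT4, the same share was 29.0%. For Sox2, with 1 region in a body of 2057 bp, it was 43.2%. Regions 38 and 39 at Nanog, and region 16 at Dppa3, hold sequence with copies elsewhere in the genome, described below. The body shares were not computed without them.

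**Figure D2:**
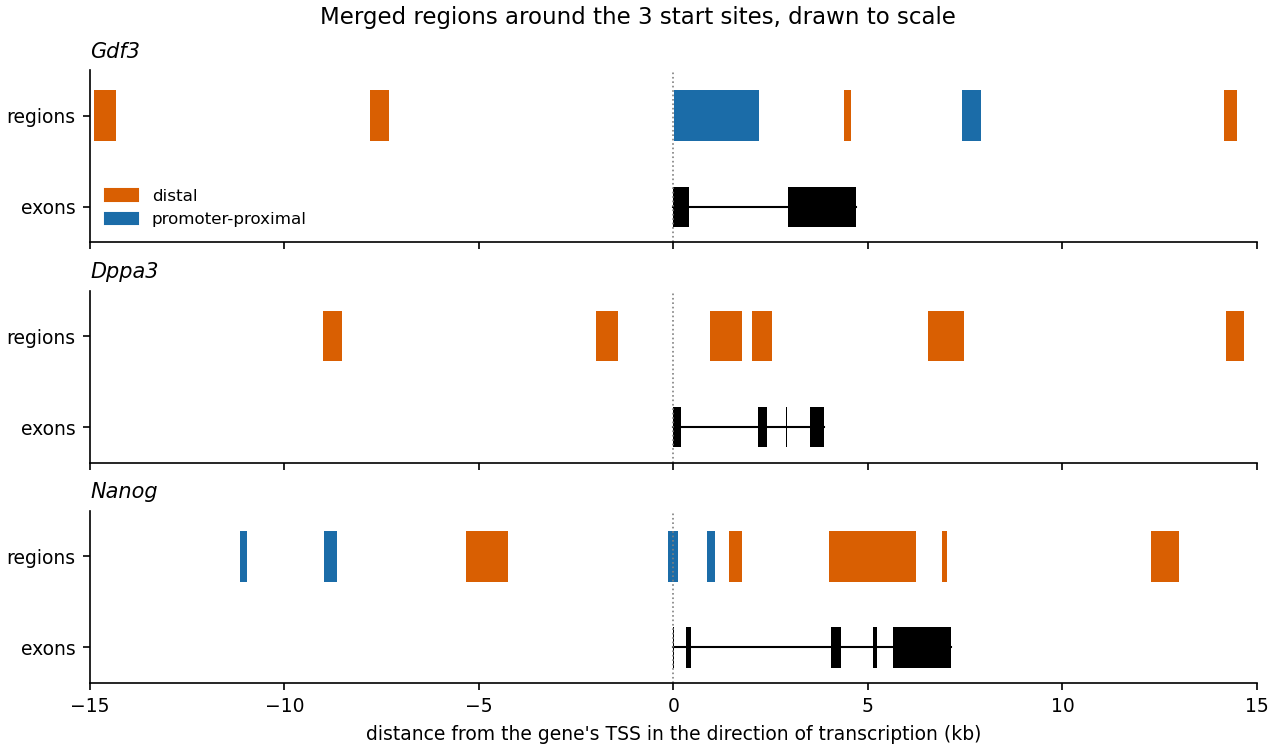
Regions (upper boxes) and exons of the longest transcript (lower boxes, black) within 15 kb of the 5′ ends of Gdf3, Dppa3 and Nanog, on a horizontal axis of distance in kb in the direction of transcription. A region lies on the dotted start line at Nanog, ends 6 bp from it at Gdf3 and stays at least 946 bp away at Dppa3.

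Downstream of Nanog, regions 40 and 41 lay in the 13.2 kb before Slc2a3 and covered 15.8% of it. Region 40, chr6:122719761-122720484, measured 724 bp and region 41, chr6:122726428-122727786, measured 1359 bp, with centers 12.6 kb and 19.6 kb from the Nanog TSS. Slc2a3 runs on past the end of the window and overlapped 9 of the 50 regions, with a median width of 394 bp. Among them, region 46, chr6:122742278-122743764, 1487 bp wide, covered the start site at position 122742745 of its 10-exon transcript. On the far side of Gdf3, Apobec1 overlapped 6 regions of 249 to 532 bp, of which region 10 (480 bp) covered the gene's 5′ end.

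The density of regions was then set against that around every other gene, with the same 50 kb to either side of the gene body. Nanog had 29 regions in its window, or 27.1 per 100 kb, and 81 of 21938 protein-coding genes (0.369%, Nanog included) had at least as many per 100 kb. Dppa3 had 24 regions, or 23.1 per 100 kb, which 458 genes (2.09%) reached. Gdf3 had 21 regions, or 20.1 per 100 kb, which 1580 genes (7.20%) reached. The median over all these genes was 10.2 per 100 kb, and the upper 10% began at 18.999, so that each of the 3 genes was in the upper 10%. The ranks share regions, since 24 of the 50 lie in 2 windows, and are not 3 separate observations. By the share of bases covered instead of the number of regions, Nanog had 14.03%, which 1.49% of genes reached, Dppa3 had 11.8% (6.25% of genes) and Gdf3 had 11.04% (9.31% of genes).

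Distal regions counted alone numbered 23 around Nanog (21.5 per 100 kb, reached by 0.447% of genes), 22 around Dppa3 (21.2 per 100 kb, reached by 0.506%) and 17 around Gdf3 (16.2 per 100 kb, reached by 3.54%), where the median gene had 6.89 per 100 kb. Around Pou5f1 there were 19 distal regions (18.1 per 100 kb, reached by 1.59%) and around Sox2 there were 12 (11.8 per 100 kb, reached by 16.9%). This count was added after the values had been seen. The distal share was 79.3% in the window of Nanog, 91.7% in that of Dppa3 and 81.0% in that of Gdf3, against 73.1% of the 26 regions around Pou5f1 and 60.0% of the 20 around Sox2. Over all regions it was 82.7%, above the shares at Nanog and Gdf3, and the Wilson intervals of the shares at these 5 genes overlap.

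A list of 27 genes that act in or mark pluripotent cells gives the setting for these numbers. It holds the core factors Pou5f1, Sox2 and Nanog, further naive factors such as Esrrb, Tbx3 and the KLF genes, markers such as the Dppa genes and Zfp42, and ligands such as Gdf3, Nodal and Fgf4. The median of the list was 20.1 regions per 100 kb. Of the 27 genes, 24 were above the median of all genes and 17 were in the upper 10%. Some windows of the list overlap, such as those of Lefty1 and Lefty2, of Dppa2 and Dppa4, and of Gdf3 and Dppa3. The 27 values are therefore not separate observations. By number of regions per 100 kb Nanog was the highest of the list, followed by Pou5f1 with 24.8 and the factor gene Klf5 with 24.1. Next were Lefty1, which encodes a Nodal antagonist, with 23.2, and Dppa3. Gdf3 had the median value of the list. By the share of bases covered, Klf5 (15.3%) and Pou5f1 (14.8%) were above Nanog (14.03%). Without regions that had a near-identical copy elsewhere in the genome, described below, Nanog had 23.3 per 100 kb. That is under the unfiltered values of Pou5f1 and Klf5. The lowest densities were those of Nr0b1 on the X chromosome with 3.84, Tcl1 with 9.43 and Klf4 with 9.50 per 100 kb. A region overlapped the 5′ end of 19 of the 27 genes (61.6% of all genes) and had an edge within 1 kb for 26 (70.1% of all genes), so that Dppa3 and Gdf3 are among the 8 without a region on it.

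**Figure D3:**
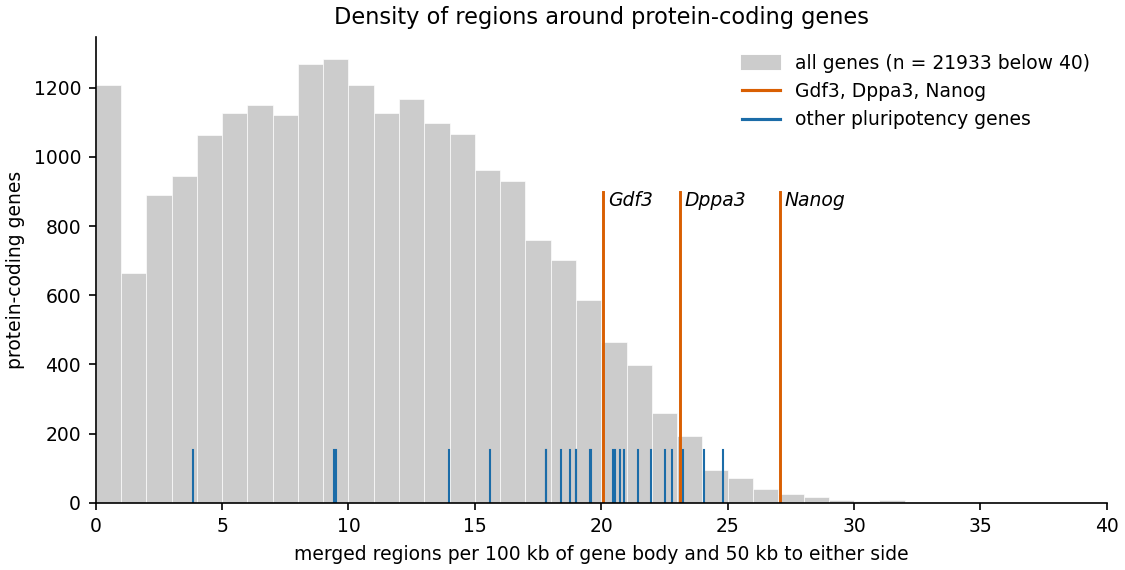
Number of protein-coding genes (vertical axis) by the number of merged regions per 100 kb of gene body and 50 kb to either side (horizontal axis, in bins of 1). Orange lines mark Gdf3 (20.1), Dppa3 (23.1) and Nanog (27.1), to the right of most genes, and short blue lines mark the other 24 genes of the pluripotency list.

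The width of the window changed these ranks, and differently for each gene. With 10 kb to either side, Nanog had 8 regions and 1.81% of genes were as dense, and its share then fell to 0.182% at 60 kb and was 0.342% at 100 kb. Dppa3 had 5 regions within 10 kb (12.0% of genes as dense) and only 7 within 20 kb (24.9%), and its rank came near the upper 2% when the window reached 40 kb and took in 20 regions (2.08%). Gdf3 had 5 regions within 10 kb (13.5%), 15 within 40 kb (15.2%) and 47 within 100 kb (0.757%), where the window reaches into the start of Nanog. At each distance from 10 to 100 kb Nanog had the highest density of the 3.

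**Figure D4:**
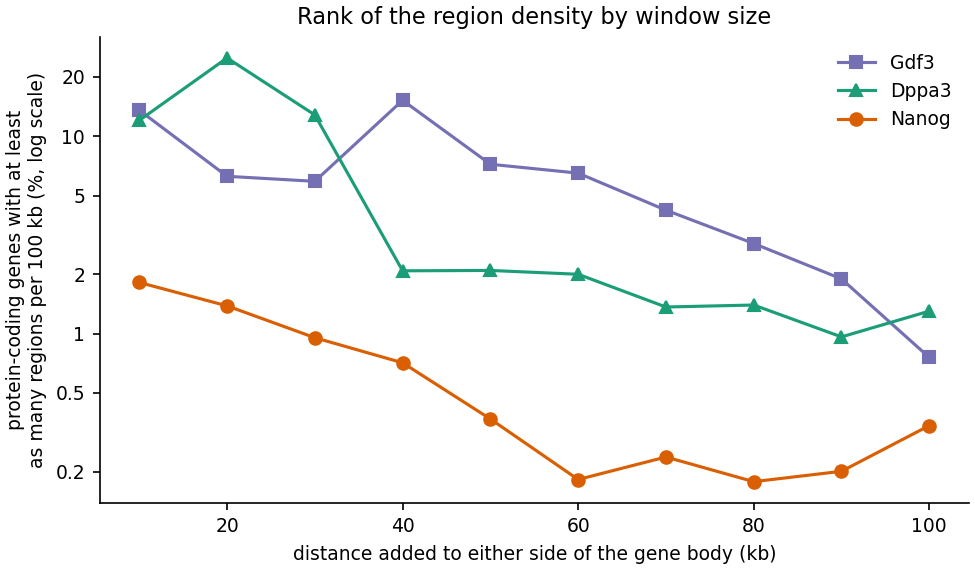
Share of protein-coding genes with at least as many regions per 100 kb (vertical axis, percent, log scale, lower is denser) as Gdf3, Dppa3 or Nanog, for windows of 10 to 100 kb to either side of the gene body (horizontal axis). Nanog stays under 2% throughout, and Dppa3 moves from 24.9% at 20 kb to 2.08% at 40 kb.

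The octamer occurred in the central 200 bp of 2 of the 50 regions, a share of 4.00% (95% Wilson interval 1.10 to 13.5%), and in 2.01% of all regions. These were region 14, upstream of Dppa3, with 2 copies, and region 22, between Dppa3 and Nanog. An OCT4::SOX2 match occurred in 2 regions as well, against 0.571% of all regions. Region 35 held CATTGTAATGCAAAA on the minus strand, chr6:122707413-122707427, with the single substitution T15A, in which the consensus base stands first and positions are counted from 1 at the 5′ end of the SOX element. It lies just upstream of the Nanog TSS and is the stretch in capitals in the Nanog promoter above. Only 0.0504% of all regions had a match with at most 1 mismatch. Region 14 held CTTTGACATGCAAAT on the minus strand, chr6:122624681-122624695, with the substitutions A2T and T6A, both in the SOX element, next to an intact octamer. The KLF element occurred in 3 regions (regions 4, 31 and 49), against 3.54% of all regions, and the ESRRB element in region 43 only, against 1.20%. The SOX element CATTGT alone, without a mismatch, occurred in 10 regions (20%, 95% Wilson interval 11.2 to 33.0%), against 12.6% of all regions. With 50 regions a single match is already 2.00%, so these shares are coarse. A match is a likeness of letters and not a measured site, and the absence of these letters from the other regions says nothing about binding there.

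The median GC content was 48.6%, against 49.2% over all regions, and the median ratio of observed to expected CpG was 0.322, against 0.243. Soft-masked repeat sequence took a median of 20.4% of each region, against 11.9% over all regions, and 5 of the 50 regions (10.0%) had none, against 20.7% of the list.

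Reads from sequence with near-identical copies elsewhere in the genome cannot always be placed. In the search for such copies, soft-masked repeat sequence could not start a match, so copies of repeats can be missed. Of the 50 regions, 5 had a match of at least 100 bp and 90% identity elsewhere that this search found. Regions outside the neighbourhood were not searched, so no share over the whole list stands beside this count. Regions 32 and 33, in the pseudogenes, were covered over their whole length by such matches, of which there were 53 and 27. Region 39, 142 bp in the last exon of Nanog, matched over its whole length a place on the X chromosome at 97.2% identity. Region 38 did so over 578 bp (25.8%) and region 16, on exon 2 of Dppa3, over 237 bp (45.8%) at 3 places. Without these 5 regions Nanog kept 25 regions (23.3 per 100 kb, reached by 1.87% of genes), Dppa3 23 (22.1 per 100 kb, 3.21%) and Gdf3 20 (19.1 per 100 kb, 9.75%), with the windows of all other genes left unfiltered, so that these ranks could only fall. The part of misplaced reads in these 5 regions was not tested.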

How the data were processed

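ATAC-seq libraries were made from the 12 samples. Per the labels and the study's methods, the authors aligned reads to mm10 (GRCm38) with STAR 2.6.1c, removed duplicates with Picard, discarded reads outside the assembled nuclear chromosomes and called peaks with MACS 2.1.1.20160309 in paired-end mode. The peaks of both lines were then merged with BEDTools. Whether peaks were called per replicate is not given in the sources used here. The deposited values are positions, a start and an end for every merged region, and 0 columns belong to a single sample. Depth per sample is unknown here, and reads were not analysed. The list still holds 16 regions over 5 kb (0 in the neighbourhood), so it precedes the width filter that the study describes, and its other filters were not checked. A merged region can join peaks of several libraries, so its width is not the width of any 1 peak.

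The reference was GRCm38 with GENCODE M21, counted from 1. Ranks compare 21938 protein-coding genes. Copies were searched with BLAST+ 2.17.0 at 90% identity over at least 100 bp, and soft-masked sequence could not start a match. The comparison of dox-treated with untreated cells that was planned was not possible without values per sample. The members and lists were chosen with earlier results of these data known. Named are the 3 genes, genes under a described region, regions on or nearest to their start sites, the 5 widest regions, the widest gap and regions with a composite match. Other regions, and the sequences shown, were chosen after their values were seen. Promoter sequences in RefSeq were matched by symbol, which found Nanog. A further item of the stretch is not reported here. The functions were tested on simulated data. Alternatives changed the window, the overlap, the width filter, joining, the TSS set, the genes compared, the measure, the motif window and the mismatches. Figures were drawn with matplotlib 3.10.9, and the rest used pandas 2.3.3, NumPy 2.4.6 and SciPy 1.17.1 under Python 3.11.15.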

Additional observations from a re-analysis of the deposited data

How the results depend on the processing

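Over 12 results, 47 other settings were run, of which 25 stayed within the limits set for them and 22 moved. With 20 kb to either side the neighbourhood held 25 regions, with 13 at Nanog, 10 at Gdf3 and 7 at Dppa3, and with 100 kb these genes had 50, 47 and 45. The share of genes at least as dense was 1.38% for Nanog, 6.26% for Gdf3 and 24.9% for Dppa3 with 20 kb, and 0.757% for Gdf3 and 1.30% for Dppa3 with 100 kb. On chromosome 6 alone it was 0.270%, 5.22% and 1.71% for Nanog, Gdf3 and Dppa3, and by bases covered it was 1.49%, 9.31% and 6.25%. The distal share of the 50 regions was 90% with the TSSs of protein-coding transcripts only, and no share over all regions is given for that set. The octamer with at most 1 mismatch was found in 9 regions (16.6% of all regions), and the OCT4::SOX2 composite in 1 region with at most 1 mismatch and in 4 with at most 3 (3.40% of all regions). A wider or narrower window, a looser motif or another gene set changes what is counted, which is the construction of these alternatives.

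Curated RefSeq TSSs, with a distal share of 92.0% and again no share over all regions beside it, were chosen after seeing the data. So were distal regions alone, with 3.54% for Gdf3 and 0.506% for Dppa3. Also chosen then were the windows of Nanog, Gdf3 and Dppa3 without regions for which a copy was found elsewhere, with 1.87%, 9.75% and 3.21%. For the last setting no other gene's window was filtered, so these ranks could only fall. In each alternative of window, genes compared, measure or regions counted, the density at the 3 genes stayed above the median of all genes.

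No paired analysis was possible because values of single libraries are not in the list, and for the same reason no replicate was left out. A stricter score threshold was not run, since the list has no score. Without depth, a weak and a strong region count the same.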
